A study of Arabidopsis thaliana with 45 samples.

Results

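Dry seeds of the Arabidopsis thaliana mutant labelled qko were compared with dry seeds of the mutant labelled cyp, to ask what the myb28 myb29 mutations add to the cyp79b2 cyp79b3 mutations. Members were set by the labels, with earlier results of these data known: 3 qko and 3 cyp libraries of dry seeds, 6 of the 45 libraries of the series. The qko seeds carry mutations in MYB28, MYB29, CYP79B2 and CYP79B3. The cyp seeds carry mutations in CYP79B2 and CYP79B3 only, so the loss of those 2 genes is shared by both groups. Both are in the Col0 ecotype, whole seeds were used, and the labels name no alleles and no plants or seed lots. A difference between genotypes and one between seed lots therefore cannot be told apart, and p-values measure only the spread between these samples. The series also holds the myb28 myb29 mutant (myb) and the wild type (WT), and seeds imbibed for 6 h in water, 10 mM KNO3 or 8 µM KSCN. Of these, dry myb (2 libraries) and dry WT (3 libraries), and qko and cyp seeds in water (3 libraries each), serve here to show where the dry qko and cyp seeds stand apart.

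Glucosinolates are sulfur- and nitrogen-rich defence compounds of the cabbage family. CYP79B2 and CYP79B3 make the oxime from tryptophan that starts the indolic class, and the transcription factors MYB28 and MYB29 switch on the genes that make the aliphatic class from methionine. Seeds receive most of their glucosinolates from the mother plant, and myrosinases, a family of beta-glucosidases, release nitriles, isothiocyanates or thiocyanate from them. The qko genotype thus lacks factors for both classes, and the cyp genotype for the indolic class alone.

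Transcripts were measured by RNA sequencing as estimated counts, summed per locus, and the 6 libraries held 22113948 to 22651745 counts each. Values per library are counts scaled by library size and TMM (CPM), and errors of fold changes are SE from an edgeR quasi-likelihood fit over all 45 libraries. A locus is said to have risen or fallen in qko where its Benjamini-Hochberg adjusted p in that fit was under 0.05, and every adjusted p below is of that kind. In whole seeds, fewer cells of a type and less RNA per cell cannot be told apart. Defining markers of the maturing embryo, such as CRA1 and OLEO1, were high in both groups. MYB5 and TT12 of the developing seed coat and ZOU and PHE1 of the young endosperm were at or near 0 in all 6 libraries. Other markers of the seed coat and endosperm were present. EPR1 of the endosperm had 17568 to 35485 CPM in qko and 6940.1 to 19632 CPM in cyp. In qko, the 8 seed coat markers, MUM4 among them, summed to 13.1 to 15.8 CPM, against 9.38 to 10.1 CPM in cyp.

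The 4 mutated genes were barely transcribed in dry seeds, so a loss of transcript could not check the labels. MYB28 had 0 counts in every one of the 45 libraries, and MYB29 had 0 counts in all dry libraries. CYP79B2 had 0, 0.275 and 0 CPM in the libraries labelled qko, against 1.64, 1.16 and 1.57 CPM in the libraries labelled cyp. The groups did not overlap, and the transcript was lower in qko (log2 fold change -3.89, SE 0.84, adjusted p = 2.2e-04) although both genotypes are labelled as mutant for it. CYP79B3 had 0.218, 0.343 and 0.414 CPM in qko and 0.530, 0.887 and 1.34 CPM in cyp (log2 fold change -1.47, SE 0.54, adjusted p = 0.022), with no overlap, but this call was lost without 1 library: adjusted p was 0.135 without cyp replicate 9, 0.0864 without qko replicate 4 and 0.0504 without qko replicate 6. Both transcripts were near 0 in dry WT seeds, with means of 0.120 CPM for CYP79B2 and 0.0714 CPM for CYP79B3, and lower than in dry cyp (log2 fold change of cyp over WT 3.55, adjusted p = 9.8e-04, for CYP79B2 and 3.58, adjusted p = 3.7e-04, for CYP79B3). In imbibed seeds, pooled over water, KNO3 and KSCN, 2 of the genes had more counts in the genotypes labelled as mutant for them. MYB29 had 50 counts over 9 imbibed qko libraries and 30 counts over 8 imbibed myb libraries, against 0 counts over 8 imbibed cyp and 9 imbibed WT libraries. CYP79B3 had 182 counts over the imbibed qko and 799 counts over the imbibed cyp libraries, against 67 counts over the imbibed myb and 30 counts over the imbibed WT libraries. CYP79B2 did not divide this way, with 7 counts in imbibed qko, 88 counts in imbibed cyp, 70 counts in imbibed myb and 14 counts in imbibed WT libraries. What these reads are was not tested.

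The difference between the genotypes reached across much of the dry seed transcriptome. Of 18066 loci tested, 9237 passed (51.1%), of which 4473 (24.8% of those tested) were higher and 4764 (26.4%) lower in qko. Most changes were small: 5817 of the called loci (63.0%) differed by under 2-fold, and the median log2 fold change over all tested loci was -0.02. Among called loci, 247 rose by more than 3 on the log2 scale and 186 had a log2 fold change below -3. A count of calls in a list of genes is therefore to be read against 51.1%, since about every other locus passed. A lack of overlap between the qko and cyp libraries was commoner still, at 12063 of the 18066 tested loci. Where no overlap is stated for a gene, it is to be read against that number. The split also depends on scaling. With total counts in place of TMM the median log2 fold change shifted by -0.36, and 2218 loci were higher and 8572 lower in qko, so that 20.6% of the calls were rises, against 48.4% with TMM. Changes below are relative to the TMM scale, and small ones near zero can change their call under the other scale.

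**Figure D1:**
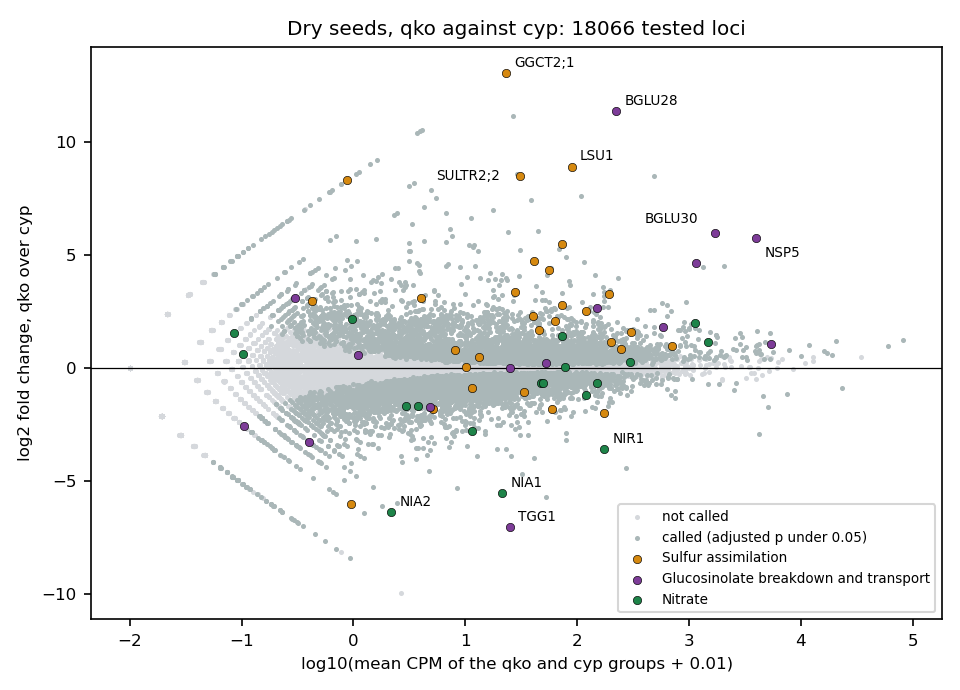
Log2 fold change (qko minus cyp, dry seeds, y axis) against the log10 of mean CPM + 0.01 (x axis) for the tested loci, with called loci in darker grey, 3 gene lists coloured and genes described in the text labelled. The cloud centres on a median of -0.02, and sulfur and glucosinolate breakdown genes such as BGLU28, LSU1 and GGCT2;1 lie at the top while TGG1 and NIA1 lie at the bottom.

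Sulfur genes had the highest share of calls among the lists. Of 31 genes for sulfate uptake, assimilation and the response to low sulfur, 29 were tested, and 22 rose while 6 fell in qko (96.6% called, against 51.1% of all loci), with a median log2 fold change of 2.08, against -0.02 over all loci. The marker genes of sulfur starvation led the list. GGCT2;1, a gamma-glutamyl cyclotransferase that breaks down glutathione, had 42.2, 48.0 and 48.6 CPM in qko and 0 counts in all 3 cyp libraries. Set against a floor of 3 counts per library, which is 0.164 CPM in cyp and covers counting error only, it was at least 282-fold higher in qko (adjusted p = 1.0e-20). LSU1, a small protein named for its response to low sulfur, had 166, 212 and 158 CPM in qko, against 0, 0.444 and 0.671 CPM in cyp (log2 fold change 8.91, SE 0.39, adjusted p = 5.5e-20). All 3 qko libraries were high and all 3 cyp libraries lay at or near 0. Its relatives followed: LSU2 averaged 78.9 ± 14.3 CPM in qko and 2.96 ± 0.234 CPM in cyp (SD, n = 3 each), LSU3 averaged 144 ± 23.7 CPM in qko and 3.23 ± 0.737 CPM in cyp, and LSU4 had 1.60, 2.06 and 1.52 CPM in qko with no count in cyp, at least 10.5-fold higher. SDI1, a repressor of aliphatic glucosinolate synthesis under low sulfur, averaged 107 ± 1.53 CPM in qko and 5.31 ± 0.515 CPM in cyp. SDI1, LSU2, LSU3, SIR, SHM7, the APK genes and the APR, APS and SULTR genes other than SULTR2;2 lie outside the rule by which genes are named and were picked with their values in view.

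Transport and assimilation genes of the same list did not all move one way. SULTR2;2, a low-affinity sulfate transporter of the vascular tissue, had 65.0, 61.9 and 56.3 CPM in qko, against 0.106, 0.0554 and 0.335 CPM in cyp (log2 fold change 8.49, SE 0.26, adjusted p = 8.3e-24). The high-affinity uptake transporter SULTR1;2 averaged 103 ± 11.2 CPM in qko and 24.4 ± 2.01 CPM in cyp, and the vacuolar exporters SULTR4;1 (log2 fold change 3.10) and SULTR4;2 (3.37) rose too. Of the enzymes, all 3 APS reductases rose, with log2 fold changes of 2.79 for APR1, 1.58 for APR2 and 2.51 for APR3, as did sulfite reductase SIR (0.96). All 4 ATP sulfurylases, which act just before APS reductase, went the other way. APS1 averaged 69.4 ± 6.08 CPM in qko and 277 ± 7.51 CPM in cyp (log2 fold change -1.99, SE 0.15, adjusted p = 7.4e-14), APS2 and APS3 fell by 0.87 and 1.79 on the log2 scale, and APS4 averaged 0.0230 CPM in qko and 1.85 CPM in cyp. The other 2 genes that fell were APK4 (log2 fold change -1.80), an APS kinase on the route to the sulfate donor of glucosinolate synthesis, and the sulfate transporter SULTR3;1 (-1.08). SHM7, a serine hydroxymethyltransferase that supports S-adenosylmethionine supply, rose (log2 fold change 3.28, SE 0.12, adjusted p = 1.1e-21). Only APK3 of the tested members did not pass. In the same list, 19 genes were higher and 7 lower in dry myb than in dry WT, while 38.0% of all loci were called there. Of the 29 genes, 8 had a qko-cyp difference that differed from that of myb and WT, a share near the 25.4% of all loci.

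**Figure D2:**
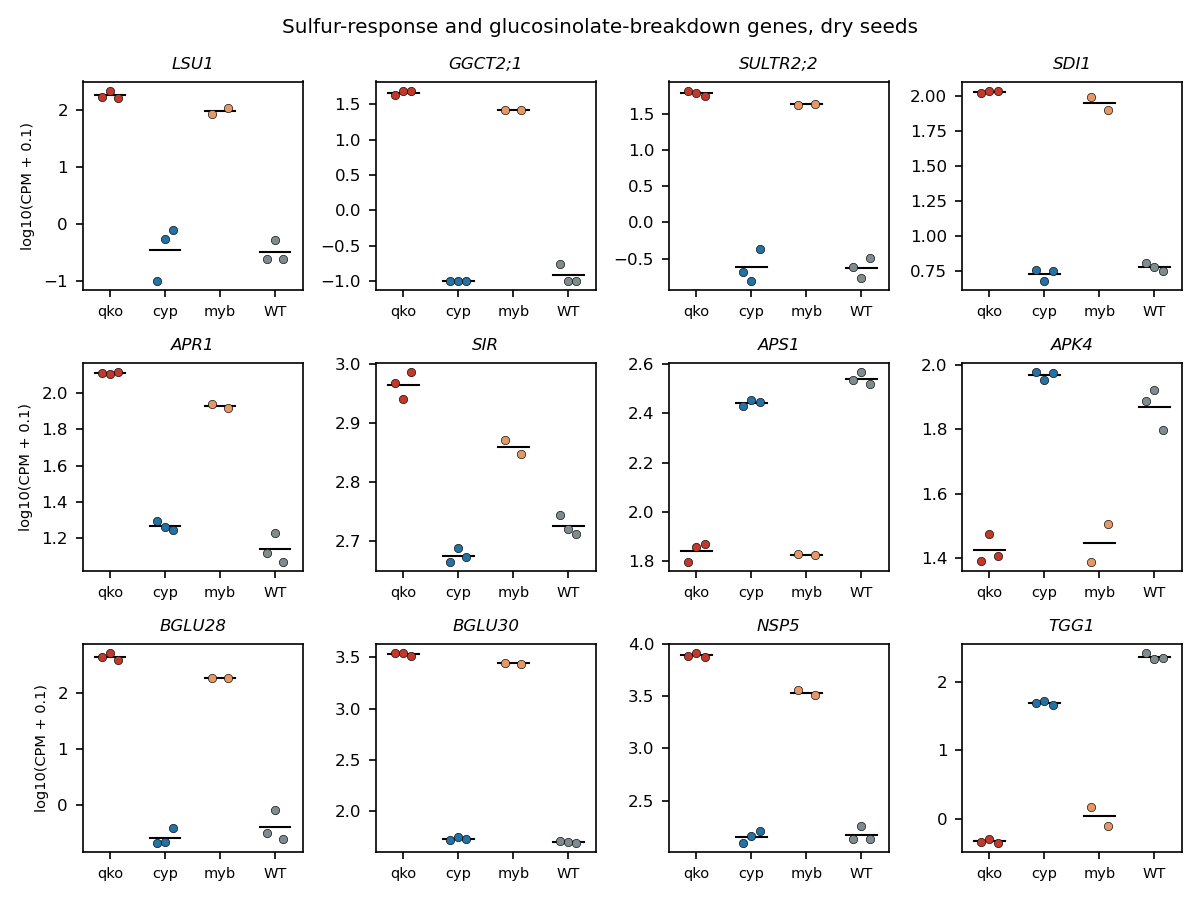
Log10 of CPM + 0.1 per library (y axis) for 8 sulfur genes and 4 glucosinolate breakdown genes in dry seeds, from left to right in qko, cyp, myb and WT, with points for libraries and lines for the mean of the log values. GGCT2;1 has no count in cyp, LSU1 and SULTR2;2 lie below 1 CPM in cyp, and APS1, APK4 and TGG1 are the genes shown that are lower in qko.

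Genes that act on glucosinolates after their synthesis changed strongly. Of 24 genes for breakdown and transport, 15 were tested, and 8 rose and 2 fell in qko (66.7% called, beside 51.1% of all loci). The median log2 fold change was 1.09. BGLU28, an atypical myrosinase known from sulfur-starved plants, had 438, 516 and 391.9 CPM in qko, against 0.106, 0.111 and 0.280 CPM in cyp (log2 fold change 11.37, SE 0.56, adjusted p = 1.8e-18). BGLU30, its companion in glucosinolate turnover under low sulfur, had 3445, 3476 and 3236 CPM in qko, against 52.4, 55.7 and 53.9 CPM in cyp (log2 fold change 5.97, SE 0.27, adjusted p = 7.6e-20). Both were high in every qko library and the groups were far apart. TGG1, the classical myrosinase of leaf guard cells and myrosin cells, showed the opposite picture, with 0.363, 0.412 and 0.345 CPM in qko, against 49.2, 52.6 and 46.7 CPM in cyp (log2 fold change -7.03, SE 0.44, adjusted p = 1.1e-15). TGG2, its neighbouring copy, had a mean of 0.0229 CPM in qko and 0 counts in cyp, and the split of reads between the pair is uncertain. The transporter NPF2.11 (GTR2), which moves glucosinolates into seeds, also fell, while its partner NPF2.10 had a log2 fold change of 0.02 (adjusted p = 0.92). NPF2.10, NPF2.11, TGG2, NSP2 and the nitrilases NIT1 to NIT3 were picked with their values in view.

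Downstream of myrosinase, genes for the formation and the removal of nitriles rose. NSP5, a nitrile specifier protein that turns the released aglycone into a nitrile, had 7767, 8215 and 7444 CPM in qko, against 124, 146 and 161 CPM in cyp (log2 fold change 5.76, SE 0.34, adjusted p = 2.9e-16). NSP2, the form known as abundant in seeds, averaged 7389.7 ± 631 CPM in qko and 3477 ± 405 CPM in cyp (log2 fold change 1.09). Together the 5 nitrile specifier genes took 0.968 ± 0.0342% of all counts in qko, against 0.296 ± 0.0294% in cyp (SD, n = 3 each). The nitrilases NIT1, NIT2 and NIT3, which turn nitriles into acids, rose as well. NIT2 averaged 2211 ± 48.8 CPM in qko and 87.3 ± 9.47 CPM in cyp (log2 fold change 4.66), NIT1 had a log2 fold change of 1.80 and NIT3 one of 2.67. These 3 are neighbouring copies of high identity, so how reads divide between them is uncertain, but each rose. NIT4, which detoxifies the cyanide product cyanoalanine and belongs to the cyanide list, fell: it had 0.290, 0.275 and 0.552 CPM in qko, against 9.49, 8.15 and 9.34 CPM in cyp (log2 fold change -4.57, SE 0.36, adjusted p = 6.4e-13). Dry WT seeds averaged 0.624 CPM of NIT4, lower than cyp (adjusted p = 1.0e-10) and not called against qko (adjusted p = 0.23).

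Of 9 genes of cyanide and thiocyanate handling, NIT4 among them, 7 were tested, 1 rose and 4 fell (71.4% called, beside 51.1% of all loci). The median log2 fold change was -0.57. CYSC1, the mitochondrial cyanoalanine synthase, averaged 2.97 ± 0.186 CPM in qko and 10.8 ± 0.259 CPM in cyp (log2 fold change -1.86, SE 0.34, adjusted p = 2.1e-05). Dry WT seeds averaged 4.57 CPM of CYSC1, lower than cyp (adjusted p = 0.0032) and not called against qko (adjusted p = 0.18). The mitochondrial cysteine synthase OASC had a log2 fold change of -0.79, and the sulfurtransferase STR1, the single rise, averaged 294 ± 1.44 CPM in qko and 182 ± 6.86 CPM in cyp. HOL1 and HOL2, thiol methyltransferases that include the thiocyanate methyltransferase, had 0 counts in all 6 libraries.

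Genes for successive steps of nitrate assimilation fell in qko. Of 21 genes for nitrate transport, reduction and signalling, 18 were tested, and 10 fell and 4 rose in qko (77.8% called, beside 51.1% of all loci). The median log2 fold change was -0.65. NIA1, one of the nitrate reductases, had 0.653, 0.824 and 1.24 CPM in qko, against 38.9, 45.1 and 41.6 CPM in cyp (log2 fold change -5.52, SE 0.47, adjusted p = 5.4e-12). NIA2, the other nitrate reductase, had 0.0725, 0.0687 and 0 CPM in qko, against 3.87, 4.82 and 4.19 CPM in cyp (adjusted p = 1.6e-07). Each cyp library held both enzymes at several CPM or more, while NIA2 was at a few counts over all qko libraries. NIR1, the nitrite reductase that takes the next step, had 29.3, 27.3 and 23.9 CPM in qko, against 311, 343 and 313 CPM in cyp (log2 fold change -3.59, SE 0.33, adjusted p = 3.9e-11). RFNR2, which supplies electrons to it in non-green tissue, had 2.9004, 2.54 and 3.24 CPM in qko, against 20.0, 20.7 and 19.6 CPM in cyp (log2 fold change -2.79, SE 0.41, adjusted p = 5.3e-07). Dry WT seeds averaged 4.84 CPM of RFNR2, lower than cyp (adjusted p = 8.5e-05) and not called against qko (adjusted p = 0.19). RFNR1, the sister gene, went the other way with a log2 fold change of 1.42.

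Among the regulators and transporters of nitrate, NLP8, a factor for nitrate-promoted germination, averaged 72.8 ± 0.891 CPM in qko and 165 ± 2.21 CPM in cyp (log2 fold change -1.18). The transceptor NPF6.3 fell (log2 fold change -1.69), as did UPM1 and G6PD3, which supply siroheme and reductant. NRT2.7, the transporter that loads nitrate into seed vacuoles, was among the rises: it averaged 1826 ± 31.4 CPM in qko and 462 ± 23.5 CPM in cyp (log2 fold change 1.98). ASN1, an asparagine synthetase, rose too and averaged 2058 ± 111 CPM in qko and 929.8 ± 48.8 CPM in cyp (log2 fold change 1.15). RFNR1, NLP8, NPF6.3, UPM1, G6PD3, NRT2.7 and ASN1 were picked with their values in view. Between dry myb and WT seeds, 2 of the 18 tested genes of this list were higher and 6 lower in myb, beside 38.0% of all loci called. For NIA1 the difference was larger between qko and cyp, with a log2 fold change of -5.52, against -1.86 between myb and WT, and the difference of the 2 was -3.65, adjusted p = 1.3e-04.

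**Figure D3:**
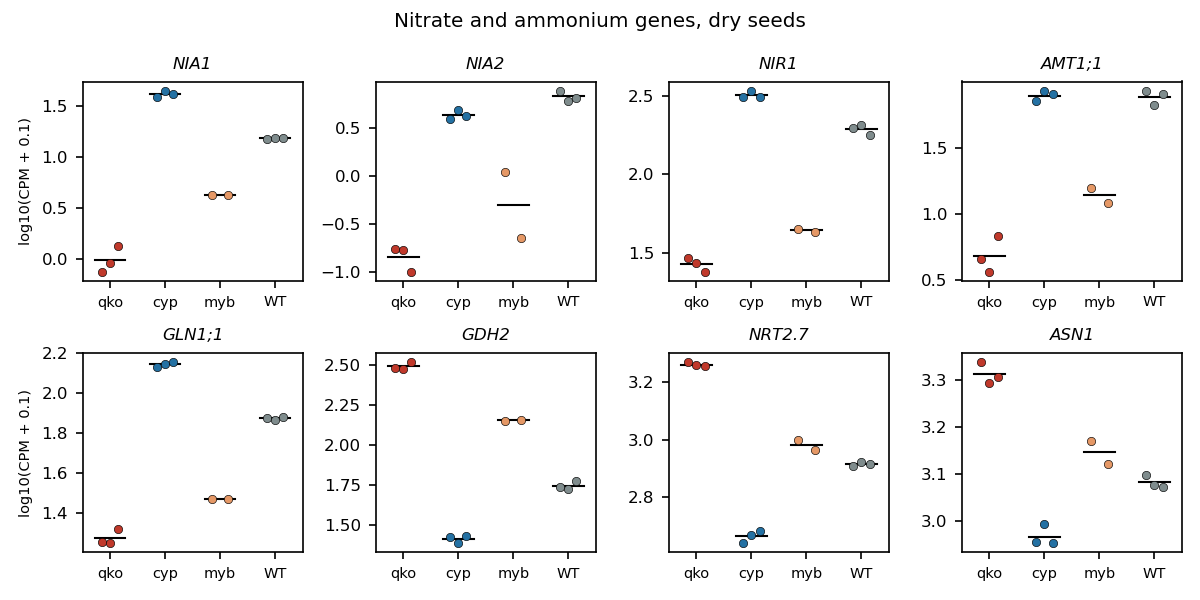
Log10 of CPM + 0.1 per library (y axis) for 8 nitrate and ammonium genes in dry seeds, from left to right in qko, cyp, myb and WT, with points for libraries and lines for the mean of the log values. NIA1 lies at 0.653 to 1.24 CPM in qko and at 38.9 to 45.1 CPM in cyp, and NIR1 and AMT1;1 fall with it while NRT2.7, ASN1 and GDH2 lie higher in qko.

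Ammonium and amide genes were put in a list after the data had been seen, so their values are given as a description. Of the 12 tested genes 3 were higher and 7 lower in qko (83.3% called, beside 51.1% of all loci). AMT1;1, an ammonium uptake transporter that the rule also names, had 4.50, 3.57 and 6.69 CPM in qko, against 70.9, 83.7 and 79.3 CPM in cyp (log2 fold change -3.98, SE 0.22, adjusted p = 5.3e-17). Cytosolic glutamine synthetase GLN1;1 averaged 18.8 ± 1.79 CPM in qko and 139 ± 3.85 CPM in cyp, whereas its isoform GLN1;3 averaged 368 ± 22.0 CPM in qko and 159 ± 1.90 CPM in cyp. The plastid form GLN2 was near 0 in qko with a mean of 0.0483 CPM, against 3.56 CPM in cyp. GDH2, a glutamate dehydrogenase that can release ammonium, averaged 313 ± 16.5 CPM in qko and 25.9 ± 1.49 CPM in cyp. ASN3, an asparagine synthetase, averaged 0.584 ± 0.214 CPM in qko and 8.51 ± 0.240 CPM in cyp.

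The pathway that MYB28 and MYB29 control was largely silent in both groups. Of 26 genes for aliphatic glucosinolate synthesis, 25 were in the table, 12 were tested and 6 had 0 counts in all 6 libraries, among them MAM1, MAM3, BCAT4, CYP79F1 and CYP79F2, which carry out chain elongation and the first step of the core pathway. Among the tested genes 5 rose and 2 fell (58.3% called, beside 51.1% of all loci), with a median log2 fold change of 0.52. The median was 0.0028 when genes with no count in a group were set at their bound. In that median a gene was set at no change where the other group did not exceed the floor. With total-count scaling 2 rose and 2 fell. IIL1 and IPMI2 act on a step shared with leucine synthesis. IIL1, the large subunit of isopropylmalate isomerase, averaged 187 ± 6.66 CPM in qko and 104 ± 1.65 CPM in cyp (log2 fold change 0.85, SE 0.09, adjusted p = 5.3e-10). IPMI2, a small subunit of the same enzyme, had 1.67, 1.099 and 1.31 CPM in qko, against 3.39, 3.71 and 4.36 CPM in cyp (log2 fold change -1.49). FMO GS-OX5, which oxidises the side chain, rose slightly (log2 fold change 0.43, SE 0.11, adjusted p = 0.0016), but not with total-count scaling. SOT18, a sulfotransferase of the last core step, had 0.290, 0.206 and 0.414 CPM in qko, against 1.48, 1.22 and 0.894 CPM in cyp (log2 fold change -1.97), and reads are hard to divide between it and its copy SOT17.

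Of the 6 leucine synthesis genes, 3 rose and 1 fell in qko (2 and 2 with total-count scaling), with a median of 0.32. The share called was 66.7%, beside 51.1% of all loci. BCAT2, a branched-chain aminotransferase, averaged 128 ± 6.91 CPM in qko and 47.3 ± 2.29 CPM in cyp (log2 fold change 1.44, SE 0.14, adjusted p = 5.6e-11). AT2G43090, a small subunit of isopropylmalate isomerase, averaged 140.1 ± 8.11 CPM in qko and 78.5 ± 3.44 CPM in cyp (log2 fold change 0.84). IMD2, an isopropylmalate dehydrogenase, had a log2 fold change of 0.43 and lost its call with total-count scaling. IPMS2, the entry enzyme, had one of -0.36 (adjusted p = 0.049) and lost its call without any of 5 of the 6 libraries.

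In the indolic pathway, blocked in both genotypes, genes moved both ways. Of 19 genes, all tested, 4 rose and 5 fell (47.4% called, beside 51.1% of all loci; 2 and 6 with total-count scaling), with a median log2 fold change of -0.20. GGP1, a gamma-glutamyl peptidase that removes glutamate from the glutathione conjugate, had 52.7, 49.4 and 54.6 CPM in qko, against 9.44, 9.31 and 9.06 CPM in cyp (log2 fold change 2.49, SE 0.11, adjusted p = 2.0e-19). GSTF9, a glutathione transferase of the step before, averaged 27.8 ± 0.951 CPM in qko and 52.9 ± 4.05 CPM in cyp (log2 fold change -0.93). CYP81F1, which hydroxylates the indole ring, averaged 111 ± 1.79 CPM in qko and 65.5 ± 0.551 CPM in cyp (log2 fold change 0.76). CYP83B1, IGMT1, IGMT2 and CYP81F2 to CYP81F4 did not pass, and each averaged under 1 CPM in both groups.

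Among 11 regulators of glucosinolate synthesis, 8 were tested, 2 rose and 4 fell (75.0% called, beside 51.1% of all loci), with a median of -0.34. MYC4, a jasmonate-responsive partner of the MYB factors, had 0.653, 0.687 and 1.03 CPM in qko, against 4.61, 3.77 and 4.86 CPM in cyp (log2 fold change -2.47, SE 0.28, adjusted p = 4.1e-09). Dry WT seeds averaged 1.36 CPM of MYC4, lower than cyp (adjusted p = 4.8e-06) and not called against qko (adjusted p = 0.057). IQD1, a calmodulin-binding regulator, averaged 5.08 ± 0.617 CPM in qko and 10.3 ± 0.556 CPM in cyp (log2 fold change -1.02). EIL3 (SLIM1), the central factor of the low-sulfur response, averaged 74.0 ± 4.25 CPM in qko and 46.9 ± 4.93 CPM in cyp (log2 fold change 0.66, SE 0.11, adjusted p = 3.7e-06). Its mean in dry WT seeds was 76.1 CPM, higher than in cyp (adjusted p = 5.6e-06) and not called against qko (adjusted p = 0.79). On the wild-type background EIL3 was lower in myb (log2 fold change of myb over WT -0.51, adjusted p = 9.8e-04). The difference of the 2 log2 fold changes was 1.17, adjusted p = 1.5e-06. MYC2 had a log2 fold change of -0.35 (adjusted p = 0.048), and its call was lost without any of 5 of the 6 libraries.

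Seed storage protein transcripts shifted between classes. The 12S cruciferins took 12.5 ± 0.635% of all counts in qko, against 7.94 ± 0.129% in cyp, while the 2S albumins took 0.644 ± 0.0550% in qko, against 1.75 ± 0.0317% in cyp (SD, n = 3 each). The 2S albumins are known as sulfur-rich storage proteins. The 7S vicilins took 1.12 ± 0.0930% in qko and 2.63 ± 0.200% in cyp, and the oleosins and caleosins of the oil body took 1.96 ± 0.0286% in qko and 1.97 ± 0.0671% in cyp. In dry myb seeds the shares were 13.6% for cruciferins and 1.09% for albumins (n = 2), against 14.1% and 4.66% in dry WT seeds (n = 3), so the albumin share did not overlap between the genotypes on either background. The cruciferin share did not overlap between qko and cyp and did overlap between myb and WT. No test was made of the shares. Of the 17 storage and oil body genes, all tested, 4 rose and 7 fell in qko (3 and 9 with total-count scaling). The share called was 64.7%, beside 51.1% of all loci, and the median log2 fold change was -0.06.

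Within the classes, single genes diverged. CRA1, a cruciferin, had 124858, 118025 and 105104 CPM in qko, against 47662, 50643 and 49401 CPM in cyp (log2 fold change 1.24, SE 0.19, adjusted p = 1.4e-06). CRU3, another cruciferin, averaged 79537 ± 4609 CPM in qko and 40173 ± 1073 CPM in cyp (log2 fold change 0.99). CRU2 ran against its class, with 1146, 816 and 1004 CPM in qko, against 7202, 7798 and 7549.9 CPM in cyp (log2 fold change -2.93, SE 0.19, adjusted p = 2.0e-15). The 3 qko values lay far below every cyp value. Of the albumins, SESA3 averaged 2377 ± 443 CPM in qko and 7807 ± 458 CPM in cyp, SESA4 averaged 25.0 ± 9.80 CPM in qko and 525 ± 52.1 CPM in cyp, and SESA5 averaged 4681 ± 346 CPM in qko and 10271 ± 253 CPM in cyp. SESA2 was the albumin that rose, with a mean of 1401 ± 86.8 CPM in qko and 442 ± 47.6 CPM in cyp. SESA1 to SESA4 are tandem copies of high identity, so their split is uncertain, and the class share above does not depend on it. PAP85, a vicilin-like cupin, averaged 16550.2 ± 1601 CPM in qko and 30565 ± 2714 CPM in cyp (log2 fold change -0.89).

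**Figure D4:**
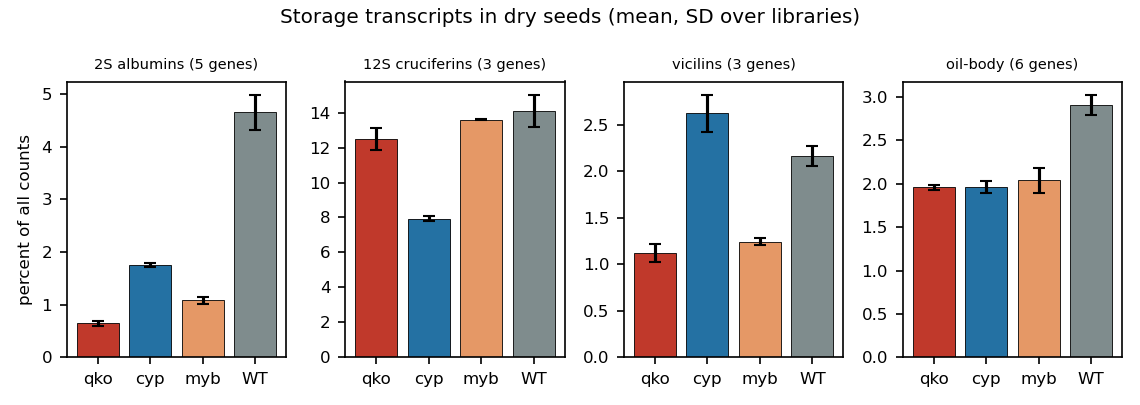
Share of all counts (percent, axis from 0) taken by storage and oil body gene classes in dry seeds, as bars of the mean with error bars of SD (3 libraries each, myb 2), from left to right in qko, cyp, myb and WT. The 2S albumin share is 0.644% in qko, 1.75% in cyp, 1.09% in myb and 4.66% in WT, and the cruciferin share of cyp (7.94%) lies below the other 3 groups.

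Desiccation proteins and small heat shock proteins parted. Of 15 genes, all tested, 4 rose and 7 fell (73.3% called, beside 51.1% of all loci), with a median of -0.04. The rises were all late embryogenesis abundant proteins, which protect dry tissue: LEA18 averaged 5780.1 ± 199 CPM in qko and 2721 ± 108 CPM in cyp (log2 fold change 1.09, SE 0.22, adjusted p = 7.1e-05), and EM1, LEA4-5 and LEA7 had log2 fold changes of 1.01, 0.80 and 0.95. EM6 and RAB18 did not pass. The falls were all heat shock genes. HSFA9, a seed-specific heat shock transcription factor, averaged 205 ± 6.98 CPM in qko and 408 ± 7.21 CPM in cyp (log2 fold change -0.99), and HSP101, a disaggregase, averaged 499 ± 29.3 CPM in qko and 1009 ± 44.3 CPM in cyp. HSP17.6II had 4.79, 3.02 and 3.45 CPM in qko, against 29.0, 25.2 and 24.0 CPM in cyp (log2 fold change -2.80, SE 0.29, adjusted p = 3.8e-10). HSP21 of the plastid, AT1G53540 of the HSP20 class, HSP17.4 and HSP17.6A fell as well, with log2 fold changes from -3.36 for HSP21 to -0.70 for HSP17.4. Dry WT seeds averaged 0.383 CPM for HSP21, 8.83 CPM for HSP17.6II and 43.8 CPM for AT1G53540. Each was higher in cyp than in WT (adjusted p = 6.6e-04, 2.0e-05 and 2.4e-05). HSP17.6II was also lower in qko than in WT (adjusted p = 9.7e-04), while HSP21 (0.68) and AT1G53540 (0.34) were not called there. HSP17.6A was not called between cyp and WT (adjusted p = 0.59) and was lower in qko than in WT (adjusted p = 0.024). Between myb and WT, 3 of the 15 genes were called, all higher in myb, beside 38.0% of all loci. The difference between the 2 backgrounds passed at 3 of the 15 genes, beside 25.4% of all loci. EM1, LEA4-5, LEA7, HSFA9, HSP101 and HSP17.4 were picked with their values in view.

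Dormancy and abscisic acid (ABA) genes changed in both directions. Of 31 genes, 29 were tested, 7 rose and 7 fell (48.3% called, beside 51.1% of all loci), with a median of -0.03. With total-count scaling 6 rose and 18 fell, so the direction of the list hangs on the scale. DOG1, the main quantitative dormancy gene, had 24.9, 20.7 and 25.5 CPM in qko, against 23.3, 23.2 and 25.2 CPM in cyp (log2 fold change -0.01, SE 0.16, adjusted p = 0.96), and the groups overlapped. This differs from the myb background, where DOG1 averaged 17.1 CPM in dry myb and 83.5 CPM in dry WT seeds, and the difference of the 2 log2 fold changes was 2.27, adjusted p = 1.9e-08. MFT, a germination repressor downstream of ABA, averaged 185 ± 2.80 CPM in qko and 52.3 ± 1.45 CPM in cyp (log2 fold change 1.82). Genes on both sides of ABA turnover moved: the degrading enzyme CYP707A2 averaged 12.8 ± 0.385 CPM in qko and 52.6 ± 3.14 CPM in cyp (log2 fold change -2.04, SE 0.31, adjusted p = 1.2e-06), while its relative CYP707A3 rose (log2 fold change 3.31, SE 0.23, adjusted p = 2.4e-14) and the synthesis gene ABA2 averaged 11.0 ± 1.18 CPM in qko and 3.11 ± 0.474 CPM in cyp. SNRK2.6, a kinase that carries the ABA signal and is best known from guard cells, averaged 17.97 ± 0.778 CPM in qko and 1.85 ± 0.249 CPM in cyp (log2 fold change 3.28, SE 0.30, adjusted p = 2.9e-11), with no overlap. The transcription factors ABI3 and ABI5 did not pass, and neither did the phosphatase gene AHG1. DOG1, MFT, ABI3, ABI5 and AHG1 were picked with their values in view.

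Gibberellin genes also moved both ways, with 4 higher and 4 lower of 21 tested (38.1% called, beside 51.1% of all loci) and a median of -0.04. The median was 0 when genes with no count in a group were set at their bound, or at no change where the other group did not exceed the floor. With total-count scaling 2 rose and 9 fell. GID1A, a gibberellin receptor, averaged 362 ± 4.89 CPM in qko and 171 ± 9.26 CPM in cyp (log2 fold change 1.08). The repressors of the DELLA family went different ways: RGA averaged 29.0 ± 1.44 CPM in qko and 12.3 ± 0.513 CPM in cyp (log2 fold change 1.23), and RGL2, the main DELLA of germination, averaged 13.0 ± 1.54 CPM in qko and 25.9 ± 0.536 CPM in cyp (log2 fold change -0.99). GA20OX3 of gibberellin synthesis had a log2 fold change of -0.88. The final synthesis genes GA3OX1 and GA3OX2 had 0 counts in qko and under 0.1 CPM in cyp.

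In the jasmonate list more genes rose than fell, at a share of calls near that of all loci. Of 17 genes, 16 were tested, and 8 rose and 1 fell (56.2% called, beside 51.1% of all loci; 6 and 2 with total-count scaling), with a median log2 fold change of 0.77. AOC2, an allene oxide cyclase of jasmonate synthesis, had 87.3, 104 and 72.1 CPM in qko, against 1.22, 1.497 and 1.17 CPM in cyp (log2 fold change 6.08, SE 0.21, adjusted p = 9.6e-23). The neighbouring copy AOC1 averaged 4.87 CPM in qko and 0.0361 CPM in cyp, and the split between the copies is uncertain. AOS, the allene oxide synthase before it, averaged 33.3 ± 3.54 CPM in qko and 12.1 ± 0.308 CPM in cyp (log2 fold change 1.46). The JAZ repressors, which jasmonate induces, were mixed: JAZ1 averaged 29.9 ± 0.741 CPM in qko and 4.95 ± 0.284 CPM in cyp, JAZ10 averaged 60.4 ± 3.35 CPM in qko and 12.3 ± 0.812 CPM in cyp, and JAZ2 fell (log2 fold change -0.97). AOS and JAZ2 were picked with their values in view. In the myb background 10 of the 16 tested genes were higher and 2 lower than in WT, beside 38.0% of all loci called.

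Other defence and detoxification genes showed no common course. Of 10 camalexin and defence genes only 2 were tested, and CYP71A13 of camalexin synthesis, which uses the product of CYP79B2 and CYP79B3, had 1.52, 2.06 and 0.621 CPM in qko, against 0.530, 0.277 and 0.391 CPM in cyp (log2 fold change 1.79, SE 0.48, adjusted p = 0.002). The median of the tested pair was -0.16. It was 0.90 with PR1 set at no change, as PR1 had 0 counts in qko and did not exceed the floor in cyp. Of 16 detoxification genes, 15 were tested, 5 rose and 2 fell (46.7% called, beside 51.1% of all loci), with a median of 0.42. GSTU24, a glutathione transferase induced by xenobiotics, had 34.1, 33.1 and 31.1 CPM in qko, against 3.18, 4.49 and 3.13 CPM in cyp (log2 fold change 3.18, SE 0.26, adjusted p = 1.9e-12). UGT74E2, a glucosyltransferase for indole butyric acid, averaged 600.0 ± 38.4 CPM in qko and 223 ± 19.3 CPM in cyp, GSTU1 had a log2 fold change of 1.52, and CYP81D11 fell (log2 fold change -1.42, SE 0.17, adjusted p = 1.8e-08).

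In lists related to growth and metabolism, calls were scattered. Of 18 ribosomal and nucleolar genes, all tested, 3 rose and 2 fell (27.8% called), with a median of 0.10, and with total-count scaling the 7 calls were all falls. FIB2, a fibrillarin of the nucleolus, averaged 12.3 ± 0.361 CPM in qko and 54.0 ± 2.33 CPM in cyp (log2 fold change -2.14, SE 0.19, adjusted p = 7.7e-12), and NUC1 (nucleolin) had a log2 fold change of -0.42. RPL3A and RPS5A rose by under 2-fold (log2 fold changes 0.50 and 0.48), and both calls were lost with total-count scaling. Of 11 photosynthesis genes 8 were tested, and the 4 that passed, PSBO1, LHCA1, GLK1 and GLK2, fell, with a median of -0.99. The share called, 50.0%, was near the 51.1% of all loci. The call of PSBO1 was lost without any of 4 of the 6 libraries, and LHCA1 and GLK1 averaged under 3 CPM in both groups. GLK2, a factor for chloroplast development, averaged 38.0 ± 5.07 CPM in qko and 51.4 ± 5.30 CPM in cyp (log2 fold change -0.43). Of 6 raffinose genes 5 were tested, and STS, stachyose synthase, was the single call (20.0% called). STS had 12.7, 10.8 and 11.9 CPM in qko and 36.2, 40.5 and 41.6 CPM in cyp (log2 fold change -1.74, SE 0.16, adjusted p = 4.5e-11). Of 13 clock genes 1 rose and 5 fell (46.2% called; 8 calls, all falls, with total-count scaling), with a median of -0.07. PRR3 averaged 45.5 ± 0.734 CPM in qko and 89.8 ± 6.22 CPM in cyp, ELF3 averaged 56.2 ± 1.09 CPM in qko and 91.7 ± 2.45 CPM in cyp, and RVE1, which promotes dormancy, had a log2 fold change of -1.18. LHY fell by 0.76 on the log2 scale, and this call was lost without cyp replicate 9 or qko replicate 7.

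Few markers of seed tissues were tested, so their shares of calls say little beside the 51.1% of all loci. The share was 40.0% of 5 embryo, 33.3% of 3 endosperm, 40.0% of 5 seed coat and 25.0% of 4 leaf and root markers. The shares also depended on the fit. With dry libraries only, where 10895 of 16129 loci passed, 2 embryo markers rose and 2 fell of 5 tested. In that fit 1 endosperm marker rose and 1 fell of 2, 1 seed coat marker rose and 1 fell of 4, and all 4 leaf and root markers fell. The summed level of the 5 embryo maturation markers was 127571 to 148959 CPM in qko, against 73388 to 78688 CPM in cyp, of which CRA1 alone, a storage protein gene, made up 124858, 118025 and 105104 CPM in qko, against 47662, 50643 and 49401 CPM in cyp. CRA1 and SESA3 were the members called, in opposite directions. The 6 endosperm markers summed to 17576 to 35494 CPM in qko, against 6952 to 19644 CPM in cyp, with overlap. Nearly all of that is EPR1, an extensin-like gene of the endosperm that weakens before germination, which had 33728, 17568 and 35485 CPM in qko, against 6940.1, 10875 and 19632 CPM in cyp (log2 fold change 1.21, SE 0.40, adjusted p = 0.012). The groups overlapped, and its call was lost without cyp replicate 7, without qko replicate 7 and with total-count scaling. The 8 seed coat markers summed to 13.1 to 15.8 CPM in qko, against 9.38 to 10.1 CPM in cyp, where MUM4 of mucilage synthesis rose (log2 fold change 0.67, SE 0.17, adjusted p = 8.9e-04) but not with total-count scaling and MUM2, picked with its values in view, averaged 0.0230 CPM in qko and 0.491 CPM in cyp. Leaf and root markers summed to 41.2 to 43.1 CPM in qko, against 56.2 to 63.5 CPM in cyp, of which GL2 fell (log2 fold change -1.35), a call lost without cyp replicate 8. The part of these marker values in the changes above was not tested.

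Over all loci, the 12 largest rises with at least 5 CPM in qko and no overlap included BGLU28, GGCT2;1, LSU1 and SULTR2;2. A further 3 of them had no count in cyp: CIB1, a light-regulated helix-loop-helix factor, was at least 49.6-fold higher, AT1G61320, which encodes an F-box and leucine-rich repeat protein, at least 47.8-fold, and AT2G32487, an uncharacterised locus, at least 44.6-fold. AT1G12030, a protein of the DUF506 family, had 973, 1036 and 923 CPM in qko, against 2.17, 2.99 and 3.02 CPM in cyp (log2 fold change 8.48, SE 0.19, adjusted p = 2.6e-28). AT3G16330, annotated as rapidly elicited in defence, had 65.9, 55.8 and 53.2 CPM in qko and 0, 0.333 and 0.112 CPM in cyp (log2 fold change 8.59). AT3G05400, a transporter of the major facilitator family, averaged 53.7 CPM in qko and 0.0185 CPM in cyp, the subtilase AT5G58840 averaged 6.98 CPM in qko and 0.0186 CPM in cyp, and the MATE transporter AT3G23550 averaged 6.24 CPM in qko and 0.0186 CPM in cyp. In all, 14 loci had no count in cyp and at least 1 CPM in qko, against 5 loci the other way round.

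The 12 largest falls were led by TGG1, AT1G68240 and NIA1 and held AMT1;1, NIT4 and SESA4. AT1G68240, a helix-loop-helix factor, had 1.89, 2.27 and 1.79 CPM in qko, against 110.5, 101 and 97.9 CPM in cyp (log2 fold change -5.70, SE 0.26, adjusted p = 2.5e-19). AT2G25980, a mannose-binding lectin, averaged 0.424 ± 0.223 CPM in qko and 16.6 ± 0.723 CPM in cyp, and the subtilase AT3G14067 averaged 2.38 ± 0.120 CPM in qko and 61.6 ± 3.68 CPM in cyp. The others were PDF1, a protodermal gene (log2 fold change -4.15), ELIP1, an early light-induced protein (-4.0), OEP6 of the plastid envelope (-3.89) and FER1, an iron-storing ferritin (-3.87). Largest by the difference in mean CPM, beside the storage genes, EPR1 and NSP5, were the rises of AT1G54870, annotated as an NAD(P)-binding protein, with 20329 ± 502 CPM in qko and 11990.2 ± 281 CPM in cyp, and of BGLU19 with 15835 ± 1139 CPM in qko and 7885 ± 641 CPM in cyp. Catalase 3 (AT1G20620) and HSP17.6A stood among the largest falls by that measure, with means of 2700.1 ± 124 CPM in qko and 6399 ± 367 CPM in cyp for the catalase.

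The myb28 myb29 mutations can be read a second time, on the wild-type background, from dry myb and WT seeds, which share no library with qko and cyp. There 6857 loci passed (38.0%), 3729 higher and 3128 lower in myb. Of the 4473 loci higher in qko than in cyp, 2131 (47.6%) were also higher in myb than in WT, which is 57.1% of the loci higher in myb. Of the 4764 lower loci, 1814 (38.1%) were also lower in myb, which is 58.0% of the loci lower there. Opposite calls were fewer, with 225 loci higher in qko and lower in myb and 336 the other way round. Across the 18066 loci the log2 fold changes had a Pearson r of 0.56, and of 0.71 over the 12111 loci with at least 5 CPM in qko or cyp. These are descriptions across loci, which are not independent. Among 103 loci with at least 5 CPM that rose by more than 3 on the log2 scale in qko, 99 were also higher in myb than in WT, and among 32 such falls 25 were also lower in myb. In size, 52 of these 103 rises and 18 of these 32 falls differed from the change between myb and WT by the test given next. Of all loci 25.4% passed that test. The 103 and 32 loci were picked by a large qko-cyp change, which is itself part of the tested difference. Their shares are therefore not comparable with that of all loci.

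**Figure D5:**
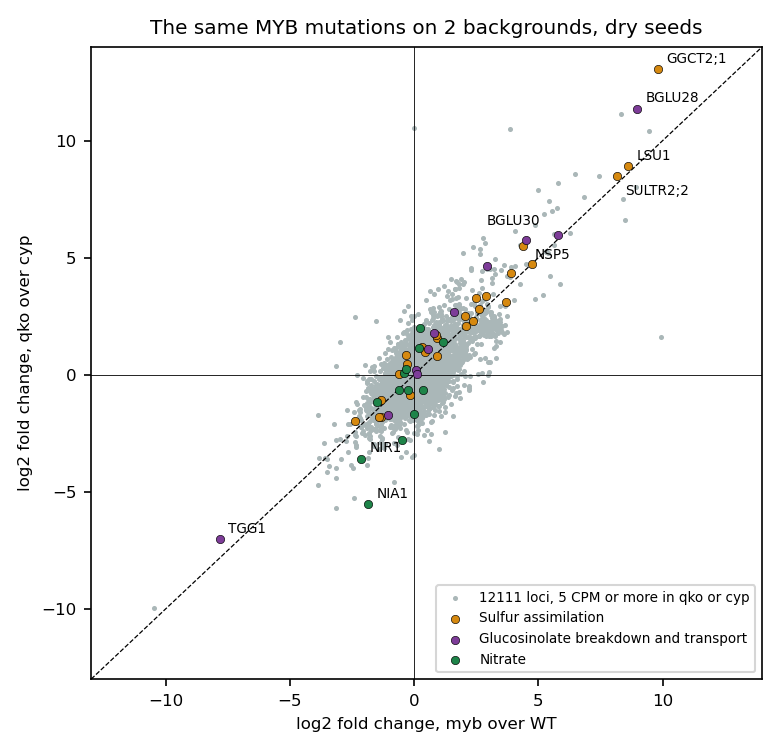
Log2 fold change of qko over cyp (y axis) against that of myb over WT (x axis) in dry seeds, 1 point for each tested locus with at least 5 CPM in qko or cyp (n = 12111, r = 0.71), with 3 lists coloured, genes of the text labelled and the diagonal dashed. LSU1, SULTR2;2 and BGLU30 lie near the diagonal, while NIA1 lies at -5.52 for qko over cyp and -1.86 for myb over WT.

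The size of the change was compared between the 2 backgrounds by a test of the difference itself, the qko-cyp log2 fold change minus that of myb and WT. It passed at 4593 loci (25.4%), with 2083 differences above and 2510 below 0. With total-count scaling 7978 loci passed, 526 above and 7452 below 0, and the median difference shifted by -0.49. Of the 9237 loci that differed between qko and cyp, 5877 did not pass this test, which does not show that they changed alike. LSU1 had log2 fold changes of 8.91 between qko and cyp and 8.62 between myb and WT, BGLU30 of 5.97 and 5.79, TGG1 of -7.03 and -7.82, and none of the 3 passed. BGLU28 had 11.37 and 8.97, with a difference of 2.40, adjusted p = 0.17. The largest differences with at least 5 CPM in a group included genes outside the lists. VIM2, a reader of methylated DNA, averaged 26.2 ± 2.98 CPM in qko and 4.75 ± 0.462 CPM in cyp, while it averaged 10.7 CPM in dry myb and 55.7 CPM in dry WT (difference 4.84, adjusted p = 1.5e-15). TSO2, a ribonucleotide reductase subunit of DNA synthesis, averaged 14.2 CPM in qko and 2.86 CPM in cyp, and 2.05 CPM in myb and 6.06 CPM in WT (difference 3.86, adjusted p = 5.0e-06). The qko libraries of TSO2 were uneven, at 8.12, 26.1 and 8.28 CPM. NRAMP6, a metal transporter, averaged 6.25 CPM in qko and 2.37 CPM in cyp, and 2.62 CPM in myb and 21.04 CPM in WT (difference 4.40, adjusted p = 4.9e-11). HSP23.6-MITO, a mitochondrial small heat shock protein, averaged 16.0 CPM in qko and 143 CPM in cyp, and 52.9 CPM in myb and 26.5 CPM in WT (difference -4.15, adjusted p = 5.7e-09).

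After 6 h in water the contrast between qko and cyp differed from that in dry seeds at many loci. The difference between the water and the dry contrast passed at 9932 loci (55.0%), 5695 above and 4237 below 0, and at 5425 of the 9237 loci called in dry seeds. Both contrasts share genotypes but no library, and the count was 9664 without imbibed qko replicate 7. Of the sulfur list 19 of 29 tested genes passed this test, of the breakdown and transport list 10 of 15, and of the 15 LEA and heat shock genes all 15. Among the largest differences were 3 genes of the heat response, with higher means in imbibed qko than in imbibed cyp and lower means in dry qko than in dry cyp. HSP17.6II averaged 680.2 CPM in imbibed qko and 21.5 CPM in imbibed cyp, against 3.75 CPM in dry qko and 26.1 CPM in dry cyp (difference 7.78, adjusted p = 7.8e-18). The plastid HSP21 averaged 34.6 CPM in imbibed qko and 0.696 CPM in imbibed cyp, against 0.256 CPM in dry qko and 2.67 CPM in dry cyp (difference 8.98, adjusted p = 7.7e-13). BAG6, a co-chaperone of the heat response, averaged 544 CPM in imbibed qko and 16.6 CPM in imbibed cyp, against 11.7 CPM in dry qko and 60.4 CPM in dry cyp (difference 7.40, adjusted p = 3.4e-18). The difference for CIB1 was below 0. After imbibition CIB1 averaged 14.1 CPM in qko and 21.6 CPM in cyp, whereas in dry seeds it had 4.57, 12.9 and 6.97 CPM in the qko libraries and no count in the cyp, myb and WT libraries. DIN10, a raffinose synthase family gene induced by sugar starvation, averaged 1.40 CPM in imbibed qko and 299 CPM in imbibed cyp, against 2.296 CPM in dry qko and 0.774 CPM in dry cyp (difference -9.30, adjusted p = 5.3e-10).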

How the data were processed

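RNA of whole seeds was sequenced as paired-end reads (DNBseq). Per the submitters' processing notes, the deposited estimated counts (expected counts) of 48268 transcripts come from Salmon, whose version was not given in the sources used here; the build was not given either. The deposited values are unscaled and need not be whole. They were added up per locus and rounded (27587 loci, 27392 of them with a name in a reference gene table).

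Differences were tested with edgeR 4.0.16 (R 4.3.3) by quasi-likelihood F tests, in 1 model of all 45 libraries and 16 groups, with TMM scaling. A low-count filter by group (minimum count 10, minimum total 15) left 18066 loci. CPM are TMM-scaled, and p-values are Benjamini-Hochberg adjusted over all tested loci. On simulated counts for these 18066 loci, 45 of 67 changes of 1.5-fold, 67 of 67 of 2-fold and 66 of 66 of 4-fold were called. Of the 184 calls 6 were false. The changed loci had at least 5 CPM, and all other loci were left equal between the groups. In the data 51.1% of loci passed, so the simulation gives no error rate for those calls or for loci at lower CPM.

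The members and lists were chosen with earlier results of these data known: 23 lists were set with the tests, and 5 were added after the values were seen. Named genes are the 4 mutated genes; up to 4 called members of each list with the largest fold change and at least 1 CPM; the 12 largest rises and 12 largest falls that reach 5 CPM in a group and do not overlap; the 6 largest rises and falls in CPM; and the 4 largest each way in each difference of differences. All other genes given were picked with their values in view. Replicate libraries of a group differed by more than counting noise, so none was counted as a duplicate. Near-identical copies share reads, so their split is uncertain.

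Alternatives were DESeq2 1.42.0, its size factors in edgeR, total-count scaling, no filter, a test against 1.5-fold (glmTreat), fewer libraries in the fit, each library left out in turn, and replicate blocks, of which the one for dry seeds was added after the data were seen.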

Additional observations from a re-analysis of the deposited data

Results flagged for a closer look

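The qko-cyp difference in dry seeds differed from that of myb and WT at 4593 loci, and the qko-cyp difference in water differed from that in dry seeds at 9932 loci. In both cases the difference itself was tested, with adjusted p from edgeR's quasi-likelihood test.

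Against myb and WT, the genes that stood apart with the largest positive differences on the log2 scale were AT1G61320 (6.65, adjusted p = 5.7e-04), VIM2 (4.84, adjusted p = 1.5e-15), NRAMP6 (4.40, adjusted p = 4.9e-11) and TSO2 (3.86, adjusted p = 5.0e-06). AT1G61320 averaged 7.85 CPM in dry qko with no count in dry cyp, and 3.84 CPM in dry myb with 0.261 CPM in dry WT. The largest negative ones were AT3G24420 (-6.24, adjusted p = 1.8e-05), AT1G26410 (-5.02, adjusted p = 5.3e-06), HSP23.6-MITO (-4.15, adjusted p = 5.7e-09) and NIT4 (-3.77, adjusted p = 2.7e-04). The hydrolase gene AT3G24420 averaged 2.96 CPM in qko and 0.755 CPM in cyp, and 8.71 CPM in myb and 0.0237 CPM in WT. AT1G26410, of the berberine bridge enzyme family, averaged 0.578 CPM in qko and 0.855 CPM in cyp, and 5.92 CPM in myb and 0.264 CPM in WT.

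Against dry seeds, the genes with the largest positive differences in water were ATMG00220 of the mitochondrial genome (10.58, adjusted p = 8.0e-05), HSP21 (8.98, adjusted p = 7.7e-13), HSP17.6II (7.78, adjusted p = 7.8e-18) and BAG6 (7.40, adjusted p = 3.4e-18). ATMG00220 averaged 13.7 ± 10.3 CPM (SD) in imbibed qko and 0 CPM in imbibed cyp, and 23.5 ± 5.68 CPM in dry qko and 14.4 ± 2.86 CPM in dry cyp. The imbibed qko libraries were thus uneven for this locus. The largest negative ones were CIB1 (-11.17, adjusted p = 3.9e-05), AT2G43140 (-9.75, adjusted p = 0.011), DIN10 (-9.30, adjusted p = 5.3e-10) and G3Pp1 (-7.80, adjusted p = 1.5e-11). AT2G43140 averaged 0.116 CPM in imbibed qko and 10.8 CPM in imbibed cyp, and 0.0483 CPM in dry qko with no count in dry cyp, and its call was lost without dry qko replicate 4. G3Pp1, a glycerol-3-phosphate transporter, averaged 12.1 CPM in imbibed qko and 61.0 CPM in imbibed cyp, and 21.2 CPM in dry qko and 0.476 CPM in dry cyp. Where a group had no count, the size of these fitted values depends on the prior count.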

How the results depend on the processing

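The 9237 calls between qko and cyp became 3416 when tested against a change of 1.5-fold (glmTreat). They were 9165 with DESeq2, 9229 with its size factors in edgeR, 10790 with total-count scaling, 8993 without the low-count filter, 10895 with dry libraries only, 10841 with the 6 libraries alone, and 8231 to 8400 when each library was left out in turn. For the difference from myb and WT, the 4593 calls became 7978 with total-count scaling and 7180 with dry libraries only, and were 4864 with DESeq2 and 3401 to 4165 with a library left out. For the difference between water and dry seeds, the 9932 calls were 10091 with DESeq2 and 9283 to 9848 with a library left out. Dry qko and cyp share replicate number 7 alone, but numbers recur over the 45 libraries, and the number as a replicate block across all of them, chosen after seeing the data, gave 9256 calls between qko and cyp and 4701 for the difference from myb and WT. Of the named genes RPL3A (adjusted p = 0.083) and PSBO1 (adjusted p = 0.064) lost their call and ATMG00220 (adjusted p = 0.015) gained one. For water against dry, the genotype-by-number replicate block gave 10791 calls. Correlations of deviations between same-numbered libraries ran from -0.093 to 0.21, and 3 of 6 exceeded 0.1. Every cyp library was among the 4 of 6 that correlated best with their own number. These values do not settle whether same-numbered libraries are paired, and the main fit did not pair them. Of 105 named genes called between qko and cyp, 81 were called with the same sign under every alternative run and 93 under all but glmTreat; 8 lost their call without 1 library (IPMS2, MYC2, RPL3A, EPR1, PSBO1, GL2, CYP79B3 and LHY). No named gene reversed. Causes of these changes were not tested. At these depths 3 counts per library equal 0.210 CPM in qko and 0.164 CPM in cyp, so transcripts below that are not told from 0, and dry myb has 2 libraries only.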

Other observations

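Phosphate and iron genes, in lists chosen after the values were seen, also differed in dry seeds. Of 15 phosphate genes 12 were tested, and the 8 that passed were higher in qko (66.7% called, beside 51.1% of all loci). The median log2 fold change was 1.52, against -0.02 over all loci. SPX1, a sensor of phosphate status that is induced by low phosphate, had 216, 232 and 223 CPM in qko, against 8.48, 9.70 and 7.66 CPM in cyp (log2 fold change 4.70, SE 0.27, adjusted p = 1.1e-16). All 3 qko libraries lay far above the cyp libraries. The phosphate uptake transporter PHT1;4 averaged 14.5 ± 3.10 CPM in qko and 0.200 ± 0.0790 CPM in cyp, the acid phosphatase PAP17 averaged 25.3 ± 0.487 CPM in qko and 1.61 ± 0.124 CPM in cyp, and WRKY45 averaged 6.59 CPM in qko and 0.0742 CPM in cyp. PHR1, the central factor of the phosphate response, had a log2 fold change of 0.18 (adjusted p = 0.12). Among the 12 genes 7 were higher and 1 lower in dry myb than in dry WT, beside 38.0% of all loci called.

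Of 13 iron genes 11 were tested, 3 were higher and 4 lower in qko (63.6% called, beside 51.1% of all loci). The ferritins FER1, FER3 and FER4 were lower, with means of 1.63 ± 0.479 CPM in qko and 23.9 ± 1.15 CPM in cyp for FER1, 3.27 ± 0.215 CPM in qko and 14.6 ± 1.197 CPM in cyp for FER3, and 1.74 ± 0.381 CPM in qko and 14.1 ± 0.846 CPM in cyp for FER4. FER2, the ferritin known from seeds, averaged 928 ± 36.5 CPM in qko and 908 ± 43.9 CPM in cyp (adjusted p = 0.91). The vacuolar iron exporter NRAMP3 averaged 19.5 ± 0.683 CPM in qko and 1.19 ± 0.220 CPM in cyp (log2 fold change 4.03), and its partner NRAMP4 had a log2 fold change of -0.24 (adjusted p = 0.068).

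Of 9 methionine sulfoxide reductase genes 7 were tested and 3 were higher in qko (42.9% called, beside 51.1% of all loci). MSRB5 had 199, 225 and 219 CPM in qko, against 1.11, 1.05 and 1.12 CPM in cyp (log2 fold change 7.61, SE 0.24, adjusted p = 8.3e-24), while MSRB1 averaged 30.5 ± 2.003 CPM in qko and 30.5 ± 2.66 CPM in cyp. In the beta-glucosidase family of 47 genes, 21 were tested, 9 were higher and 4 lower (61.9% called). Beside BGLU28 and BGLU30, the rises past 5 on the log2 scale were BGLU15, BGLU16 and BGLU46, with means of 10.9, 47.2 and 8.43 CPM in qko, against 0.0540, 0.732 and 0.163 CPM in cyp, and reads may be shared between neighbouring members.

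Loci next to the mutated genes were counted. Of the 40 nearest loci by identifier order, 20 on each side, 60.7% of those tested were called around MYB28, 54.2% around MYB29, 45.2% around CYP79B2 and 40.0% around CYP79B3, beside 51.1% of all loci.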
